A study of Xenopus tropicalis with 4 samples.

Results

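The gene foxh1 was followed in mRNA of Xenopus tropicalis embryos that had received a morpholino against it. It was found as the row whose gene identifier reads foxh1 once a prefix is removed, which gave 1 of the 28850 genes in the files. The samples were explants of the animal cap, the ectoderm on top of the early embryo, dissected from gastrulae at stage 10.5. All embryos were wildtype by genotype, had been injected at the 1-cell stage and were kept at 25 °C. The control group had received 22.5 ng of a standard control morpholino (control MO), and the other group 22.5 ng of a morpholino against Foxh1 (Foxh1 MO). Each group held 2 libraries, numbered 1 and 2. A morpholino is a synthetic oligonucleotide that pairs with RNA and blocks either its translation or its splicing. The sources used here do not say which of these the Foxh1 MO does, and its sequence is not printed here. Nor do they state that replicate libraries stem from separate clutches, and the p-values therefore rest on a spread between libraries that may be technical.

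The protein Foxh1 binds DNA through a forkhead domain. Nodal ligands and related TGF-beta signals activate type I and type II receptors, which phosphorylate Smad2 and Smad3; these bind Smad4, and Foxh1 brings the complex to DNA. In Xenopus the foxh1 transcript is supplied maternally, and the pathway is best known for inducing mesoderm and endoderm, while the animal cap gives rise to epidermis and neural tissue.

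Expected counts, the estimated number of fragments from each gene, summed to between 25632619 and 29750009 in 3 libraries and to 29800530 in control MO 2. Ribosomal RNA gene models took 28.3% to 34.0% of them. The ectoderm label was checked with marker lists, which were chosen with earlier results of these data known. The summed level of 29 ectoderm genes, in TPM (a transcript level corrected for gene length and scaled to the same total in every library), was 8549 to 8614 in the control and 7835 to 8142 in the Foxh1 MO libraries. Its fall rested on cldn6.1, which was not called, at 2185 and 2257 TPM in the controls and 1532 and 1684 TPM with Foxh1 MO. The sum hides changes both ways, since 10 ectoderm genes were called higher and 6 lower. Mean TPM fell from 705 to 444 for sox3 and from 207 to 85.6 for sox2, and rose from 274 to 436 for tfap2a and from 73.3 to 127 for grhl1. The summed level was 221 to 227 and 250 to 286 TPM for 25 mesoderm genes, and 124 to 131 and 95.3 to 102 TPM for 23 endoderm genes. Most of the endoderm sum came from endod1 and vegt, neither of them called. In the controls endod1 stood at 45.04 and 40.02 TPM, and with Foxh1 MO at 34.54 and 32.32 TPM. The vegt transcript, also on the list of maternal regulators below, stood at 49.84 and 56.49 TPM, then at 40.73 and 47.14 TPM. Whether endod1 and vegt mark endoderm in these explants was not tested. The rise of the mesoderm sum rested on 1 gene: without not, a notochord gene, the sum was 116 and 121 TPM in the controls and 100.2 and 114 TPM with Foxh1 MO, the other direction. Much of that remainder was szl, not called, at 67.6 and 66.8 TPM in the controls and 56.1 and 67.9 TPM with Foxh1 MO. Whether not and szl mark mesoderm in these explants was not tested. No ectoderm or mesoderm marker was at 0 in all 4 libraries, and the endoderm markers nodal1, nodal2 and nodal6 were. The part of these shifts in the foxh1 result was not tested.

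The foxh1 transcript rose 2.91-fold in the Foxh1 MO libraries. In CPM, counts scaled to library size by the TMM method, it stood at 79.3 CPM in control MO 1 and at 71.2 CPM in control MO 2. It stood at 264 CPM in Foxh1 MO 1 and at 174 CPM in Foxh1 MO 2. Both Foxh1 MO libraries thus lay above both control libraries, and the lower of them was 2.19 times the higher control. Such an arrangement was common, since 26.5% of the 13756 tested genes had both Foxh1 MO libraries above both controls. The group means were 75.2 ± 5.7 CPM in control MO and 219 ± 64.1 CPM in Foxh1 MO (SD, n = 2). The log2 fold change was 1.54 with a standard error of 0.19, and the edgeR quasi-likelihood test gave an adjusted p of 0.000431 over all tested genes. The 95% interval of the fold was 2.20 to 3.84. By the same rule, an adjusted p under 0.05, 4.17% of the tested genes were called higher and 4.07% lower. The labelled target of the Foxh1 MO was therefore not reduced at the level of its transcript. How much Foxh1 protein was present was not measured.

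**Figure D1:**
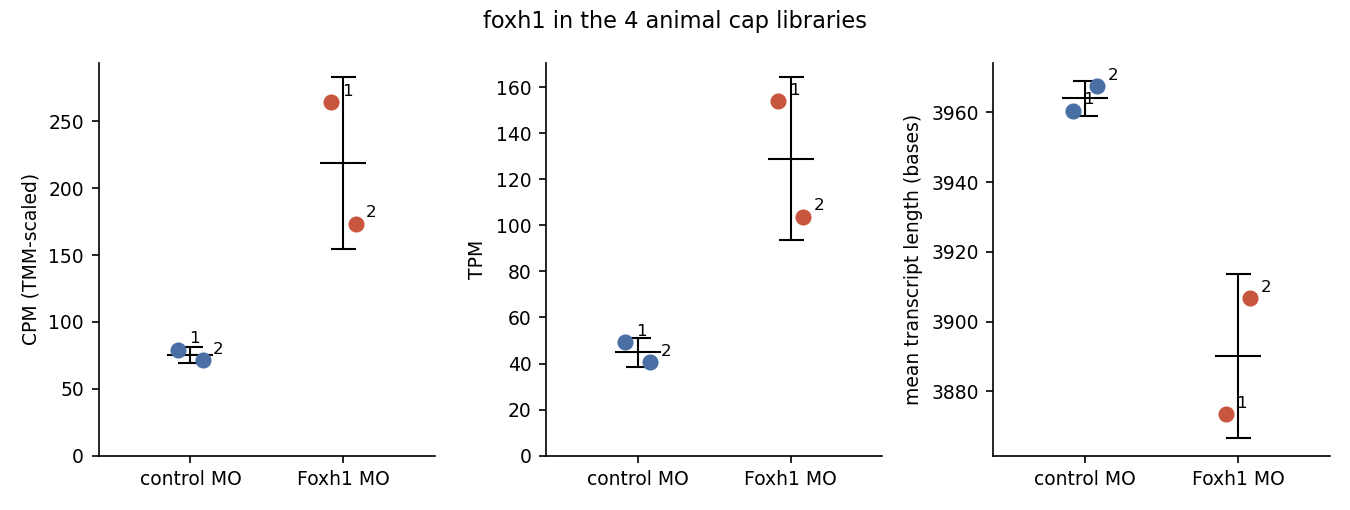
The level of foxh1 in each library in TMM-scaled CPM (left) and TPM (middle), and the mean length in bases of its transcripts (right; this axis does not start at 0). Points are libraries marked by replicate number, and black bars are group means ± SD (n = 2); Foxh1 MO 1 at 264 CPM and Foxh1 MO 2 at 174 CPM lie above both control libraries.

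Counting error was small beside these differences. The foxh1 row held 2487 counts in control MO 1 and 2024 in control MO 2, against 7240 in Foxh1 MO 1 and 4603 in Foxh1 MO 2. As a share of all counts of a library, with an exact Clopper-Pearson 95% interval that covers counting error only, this was 83.6 CPM without TMM scaling (80.3 to 86.9) in control MO 1 and 67.9 CPM (65.0 to 70.9) in control MO 2. It was 253 CPM (248 to 259) in Foxh1 MO 1 and 180 CPM (174 to 185) in Foxh1 MO 2. The 4 intervals did not overlap one another, so the libraries within each group also differed by more than counting error. Reads without molecular identifiers are not independent molecules. All 4 foxh1 counts were whole numbers as deposited, whereas 9.44% to 10.2% of the genes with a count had a fractional value (more than 0.005 from a whole number), which arises when RSEM splits reads between genes.

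The 2 libraries labelled Foxh1 MO differed in foxh1 more than most genes of like level did. Foxh1 MO 1 was 1.52 times Foxh1 MO 2 in CPM, and control MO 1 was 1.11 times control MO 2. On the log2 CPM scale the difference within the Foxh1 MO pair was 0.61, while the median absolute difference over 2122 genes within a factor of 2 of its mean CPM was 0.16. It exceeded that of 95.1% of these genes. Within the control pair the difference was 0.15, larger than in 64.8% of them. The genes called higher did not share the order of the Foxh1 MO pair: 241 of 574 were higher in Foxh1 MO 1 than in Foxh1 MO 2, with a median difference of -0.05. Set against single controls, foxh1 was 3.33 and 3.71 times as high in Foxh1 MO 1 as in control MO 1 and 2, and 2.19 and 2.44 times as high in Foxh1 MO 2. With Foxh1 MO 1 left out, the log2 fold change was 1.21, and with Foxh1 MO 2 left out it was 1.81. A fit without 1 library leaves a lone library in its group, which is assumed to vary like the other group. Calls and adjusted p of such fits, given below, are therefore not comparable with those of the main test.

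Few abundant transcripts rose as much. Among the 574 genes called higher, whose median log2 fold change was 0.77, foxh1 ranked 77 by fold change and 28 by adjusted p. Of the 2420 tested genes with a control mean of at least that of foxh1, 61 were called higher, and foxh1 had the highest log2 fold change of all 2420. The next were cep85, a centrosomal protein gene, at 1.49 (88.3 ± 2.39 to 249 ± 23.0 CPM), and pds5b, a cohesin regulator gene, at 1.26 (76.3 ± 6.15 to 182 ± 2.33 CPM). This order between foxh1 and cep85 was within their standard errors of 0.19 and 0.14. It turned without control MO 2, where cep85 stood at 1.52 and foxh1 at 1.47, and without Foxh1 MO 1, where foxh1 at 1.21 came after cep85 at 1.59 and pds5b at 1.25. By the rise in mean CPM, 144, foxh1 ranked 46 among all tested genes.

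**Figure D2:**
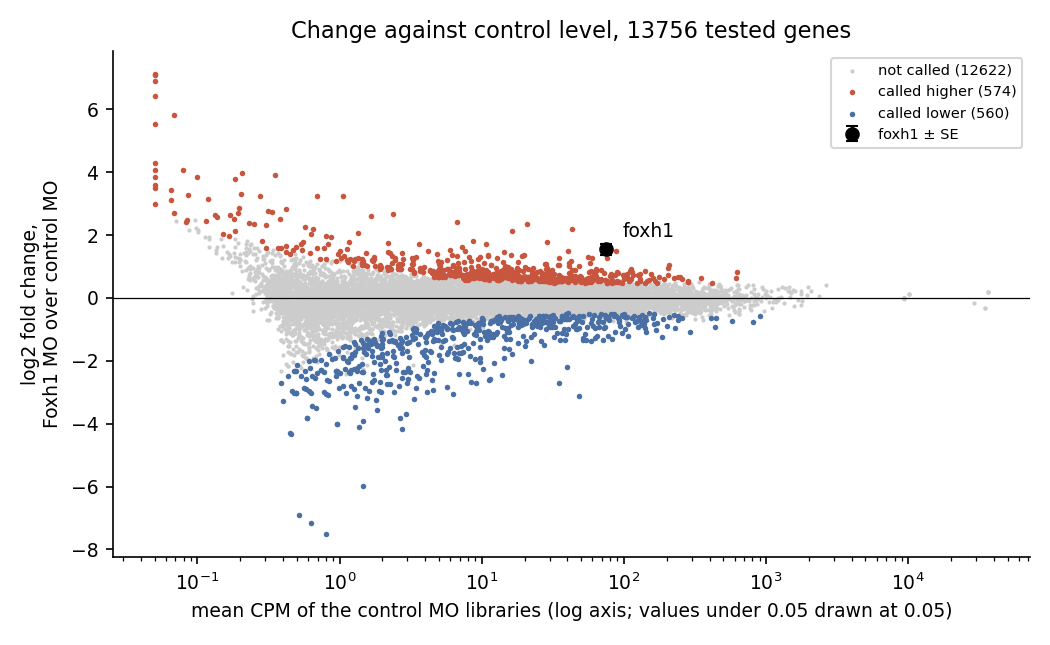
Log2 fold change of each tested gene (vertical) against its mean CPM in the control MO libraries (horizontal, log axis). Red and blue points are the 574 genes called higher and the 560 called lower, and the black point is foxh1 ± SE at 75.2 CPM and 1.54, at the upper edge of the genes of its level or above.

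In the authors' deposited table, foxh1 had a log2 fold change of 1.51, an F statistic of 64.1 and a false discovery rate of 4.95e-13. It ranked 36 of 13758 genes by p-value in the authors' deposited table. Its direction there matched the libraries, with positive values for genes higher in Foxh1 MO. Across genes, the deposited fold changes lay closer to a fit with the replicate number as a block than to the main test. That fit gave foxh1 an edgeR adjusted p of 2.77e-12. The deposited rate is therefore not directly comparable with the adjusted p of the main test.

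Corrected for gene length, foxh1 was 49.3 TPM in control MO 1 and 40.5 TPM in control MO 2, and 154 TPM in Foxh1 MO 1 and 104 TPM in Foxh1 MO 2. The means were 44.9 ± 6.21 and 129 ± 35.4 TPM (SD, n = 2). These levels placed it at rank 3669 and 4002 in the control libraries, above 79.9% and 78.0% of the genes with a TPM above 0. In Foxh1 MO 1 and 2 it stood at rank 1005 and 1691, above 94.4% and 90.5% of such genes. The groups did not overlap in TPM or in rank. Fragments per kilobase scaled to library depth (FPKM) as deposited were 22.5 and 18.11 in the controls and 69.6 and 48.8 in the Foxh1 MO libraries.

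The 6 genes next to foxh1 in mean control TPM were not called. Above it stood pnpt1, which encodes a mitochondrial RNA-processing enzyme, ccdc167, and the WASH complex gene washc5. Below it stood fyb2, the fatty acid activating enzyme gene acsl4 and the mitochondrial RNA-binding gene fastkd2. Their control means were 44.8 to 44.96 TPM, and their log2 fold changes ran from -0.13 (ccdc167) to 0.45 (pnpt1, edgeR adjusted p = 0.0658). The signs of ccdc167, washc5, fyb2 and acsl4 turned in at least 1 alternative. When Foxh1 MO 1 was left out, the log2 fold change of pnpt1 was 0.55.

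The files assign 3 RefSeq transcripts to foxh1. RSEM reports for each gene a length averaged over its transcripts by their abundance. For foxh1 this was 3961 bases in control MO 1 and 3968 in control MO 2, but 3874 in Foxh1 MO 1 and 3907 in Foxh1 MO 2. Both Foxh1 MO values were below both controls, and the mean fell by 73.9 bases, or 1.86%. The library with the most foxh1 had the shortest mean length. The same non-overlap toward shorter length was seen in 15.7% of the 7237 tested genes with several transcripts, and 17.7% of them had a larger shift in either direction, so a shift of this size was not rare. Shares of single transcripts were not analysed here. With each library's effective length as an offset in the edgeR fit, the log2 fold change of foxh1 was 1.57.

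Among forkhead genes foxh1 moved up in rank. The files held 44 genes named fox with a class letter and a number. In control MO 1 and 2 foxh1 ranked 5 and 6 of them by TPM and made up 4.2% and 3.3% of their summed TPM. In Foxh1 MO 1 and 2 it ranked 2 and 3 and made up 12.38% and 9.68%. The ectodermal gene foxi4.2 was highest in every library (534 to 653 TPM; log2 fold change -0.01, not called, and 0.16 without control MO 2). In the controls foxh1 lay beside foxd4l1.1, a neural plate gene (55.4 and 50.4 TPM), and foxj1, the regulator of motile cilia (40.9 and 46.5 TPM). Its control range overlapped that of foxj1 and lay just below that of foxd4l1.1. In the Foxh1 MO libraries its range overlapped those of foxi1, a regulator of ionocytes (83.5 and 133 TPM), and of foxi2 (105 and 101 TPM).

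Of the 43 other fox genes 29 were tested, of which 1 rose, 6 fell and 22 did not pass. Their median log2 fold change was -0.52, beside -0.00019 over all tested genes, and 24.1% were called, beside 8.24% of all. The gene that rose was foxi1, by 1.87-fold (edgeR adjusted p = 0.0197), and its call ended without control MO 1 (adjusted p = 0.0518) or Foxh1 MO 2 (adjusted p = 0.0914). Among those that fell, foxj1 was 2.0-fold lower and foxi2 1.5-fold lower; foxi2 lost its call without control MO 1 or control MO 2 (adjusted p up to 0.124). Of the 6 that fell, 5 lost their call when some library was left out, foxd4l1.2 in each of the 4 cases, and foxj1 kept its call. Fewer fox genes were called lower without Foxh1 MO 2 and more without Foxh1 MO 1, as was so over all tested genes. For foxd4l1.1, not called, the log2 fold change was -0.42, and -0.56 without Foxh1 MO 1.

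**Figure D3:**
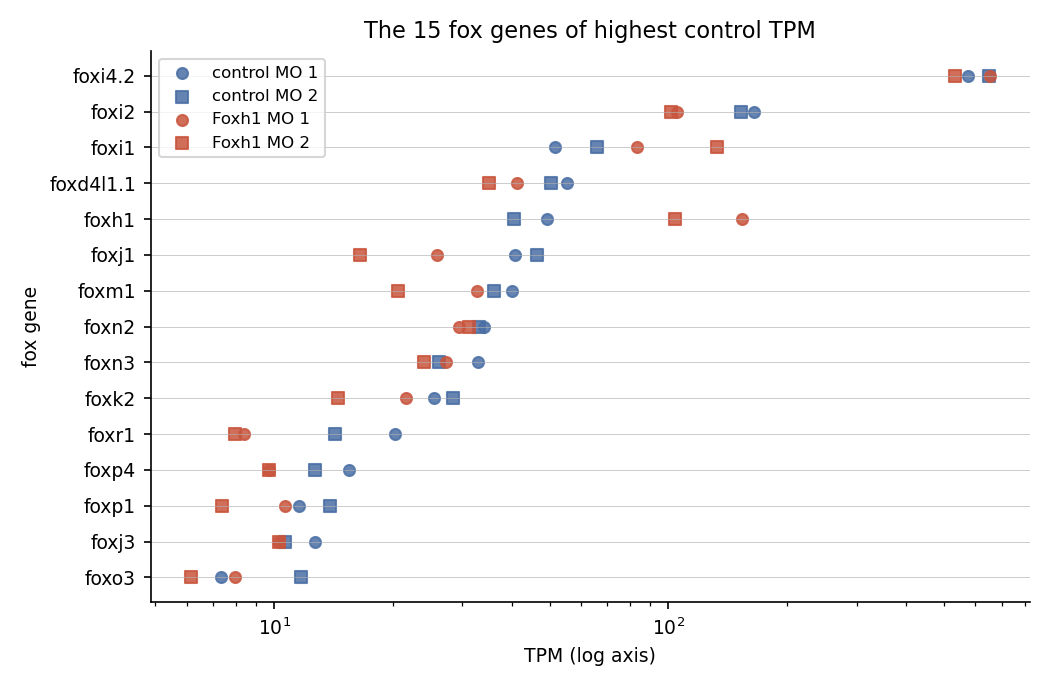
TPM (log axis) of the 15 fox genes with the highest mean control TPM, one row per gene and one point per library. The foxh1 points of Foxh1 MO 1 (154 TPM) and Foxh1 MO 2 (104 TPM) are well to the right of its control points (49.3 and 40.5 TPM), while most other rows overlap or shift to the left.

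Next to foxh1 in the RefSeq gene order, no tested gene was called. On one side lay tonsl, which encodes a DNA repair protein, then LOC101735078 and LOC101735269. On the other lay LOC116411769, then ppp1r16a, a regulatory subunit gene of protein phosphatase 1, and LOC116411897, an annotated ribosomal RNA gene at 0 in all 4 libraries. The nearest tested gene, tonsl, stood at 35.1 and 44.3 CPM in the controls, against 51.9 CPM in Foxh1 MO 1 and 33.1 CPM in Foxh1 MO 2, so its groups overlapped. Its log2 fold change was 0.10 (SE 0.20, edgeR adjusted p = 0.835), and its sign turned without control MO 1 or Foxh1 MO 1. For ppp1r16a and LOC101735269 the log2 fold changes were -0.22 and -0.14. LOC116411769 and LOC101735078 had at most 8 counts in any library and were not tested.

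Among the transcripts of the Nodal pathway, foxh1 stood below those of its partners smad2 and smad4.1 in the controls and above them in the Foxh1 MO libraries. In control MO 1 and 2 its TPM was 0.784 and 0.656 times that of smad2, and in Foxh1 MO 1 and 2 it was 1.56 and 1.17 times as high. Against smad4.1, which encodes a common partner Smad, the ratios were 0.550 and 0.448 in the controls and 1.6 and 1.57 in the Foxh1 MO libraries. Against smad3 they were 3.98 and 3.44 in the controls and 9.58 and 7.98 in the Foxh1 MO libraries. Against smad4.2 they were 2.31 and 1.62 in the controls and 5.26 and 5.06 in the Foxh1 MO libraries. Thus foxh1 stood above smad3 and smad4.2 in every library. With foxh1 added to the 47 pathway genes found in the files, it ranked 16 and 18 of 48 by TPM in the controls and 4 and 7 in the Foxh1 MO libraries.

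Calls among the other pathway genes were about as frequent as over the whole table (8.24%). Of 35 tested, 1 rose, 2 fell and 32 did not pass (8.57% called), with a median log2 fold change of -0.08. Among 4 tested transducers smad2, which carries the signal to the nucleus, rose from 59.0 ± 2.95 to 93.2 ± 9.93 CPM, a log2 fold change of 0.66 with an SE of 0.14 (edgeR adjusted p = 0.0137). That call ended without control MO 1 (edgeR adjusted p = 0.0933). The most abundant of the listed pathway transducers by TPM, smad4.1, had a log2 fold change of -0.11. This change was 0.15 without Foxh1 MO 2 and -0.43 without Foxh1 MO 1. Of 3 tested ligand genes gdf3, a TGF-beta family ligand with the highest control TPM among them, fell 4.64-fold, from 3.22 and 2.85 CPM in the controls to 0.475 and 0.830 CPM with Foxh1 MO (edgeR adjusted p = 0.00194). Another 10 ligand genes, nodal itself among them, were too low to test. None of 8 tested receptor and co-receptor genes was called; tdgf1.3, a co-receptor gene of the Cripto family and the most abundant, had a log2 fold change of 0.17. Of 17 tested inhibitors 1 was called: fst (follistatin), which binds activin, fell from 2.52 and 3.66 CPM to 0.986 and 0.679 CPM (3.68-fold, edgeR adjusted p = 0.00471). The most abundant inhibitor gene, drap1, which encodes a corepressor, stood at -0.20, and the protease gene furin, which cleaves ligand precursors, at -0.07. Without Foxh1 MO 1 more pathway genes were called in both directions, as was so over all tested genes, and the cause was not tested.

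**Figure D4:**
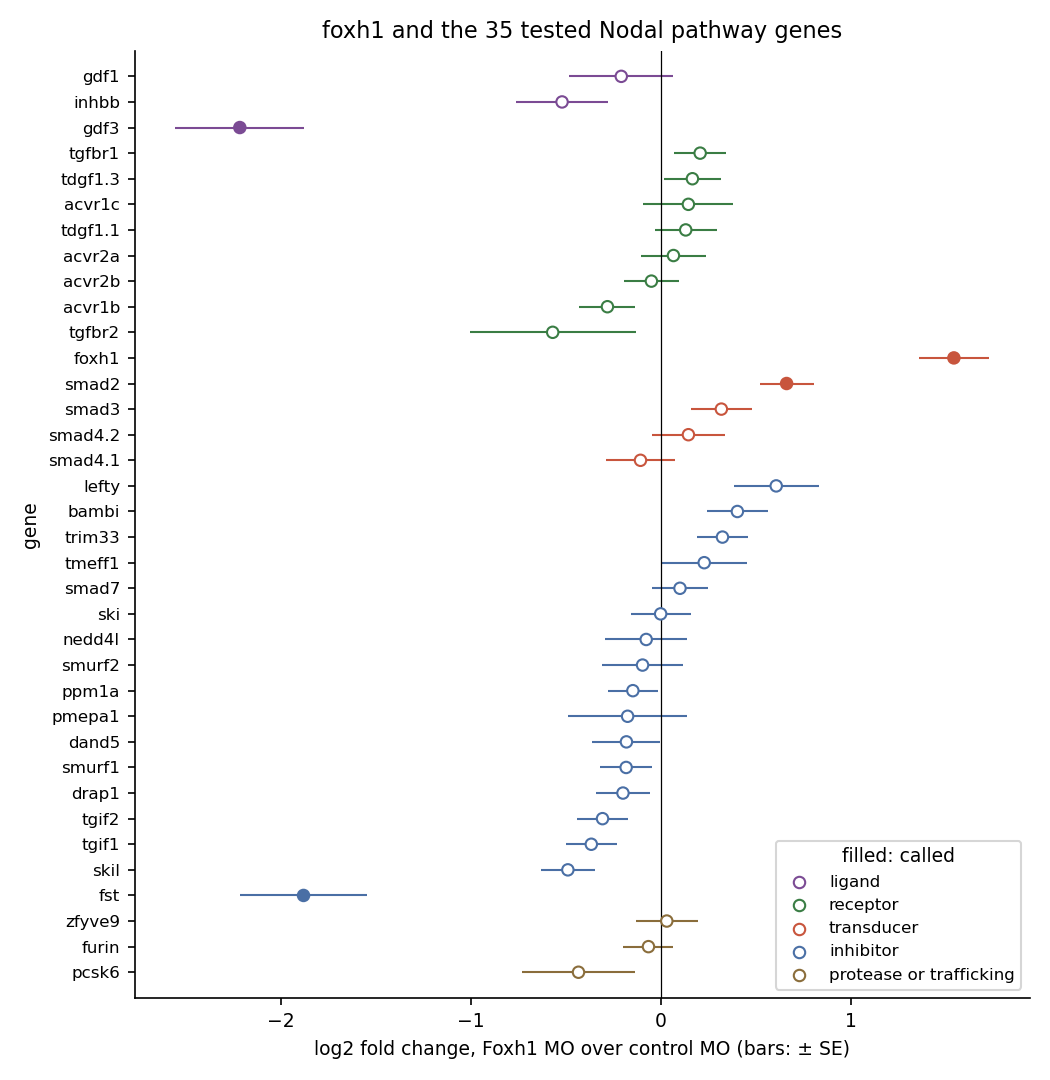
Log2 fold change ± SE (horizontal) of foxh1 and the 35 tested Nodal pathway genes, ordered within each role. Filled points were called (foxh1, smad2, gdf3 and fst) and open points were not; foxh1 at 1.54 lies farthest to the right.

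Of 52 genes known to respond to Nodal signals, 34 were tested, 2 rose, 12 fell and 20 did not pass. That is 41.2% called with a median log2 fold change of -0.86, beside 8.24% and -0.00019 over all tested genes. A high share was not particular to this list, since it was 57.1% for the ectoderm markers and 37.5% for the maternal regulators described below. The Nodal list, like the others, was chosen with earlier results of these data known. Among those that fell, the lowest adjusted p by edgeR were those of chrd.1, which encodes the BMP antagonist chordin (12.9-fold lower), the protocadherin gene pcdh8 (5.30-fold lower), the homeobox gene mix1 (5.85-fold lower) and the BMP-like ligand gene admp (15.1-fold lower). These transcripts were low in the controls already. Mean TPM went from 1.68 to 0.13 for chrd.1, 3.2 to 0.59 for pcdh8, 5.89 to 0.97 for mix1 and 1.625 to 0.1 for admp. The admp values rested on 2 to 47 counts per library. Not every transcript that fell was this low. Mean TPM fell from 119 to 55.24 for cyp26a1 (edgeR adjusted p = 0.000941) and from 16.9 to 8.675 for otx2 (edgeR adjusted p = 0.00696). The others called lower had control means of 6.75 TPM (foxd3) or less. Those that rose were darmin (9.80-fold, from a mean of 0.31 to 3.04 TPM) and not (1.58-fold). The call of not ended when Foxh1 MO 1 or either control library was left out. Without Foxh1 MO 2 fewer were called lower, as was so over all tested genes. With foxh1 added, it ranked 4 of 53 by TPM in both controls and 2 in both Foxh1 MO libraries.

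Other lists serve as context for a maternal transcript, and the share of all tested genes called, 8.24%, stands as background to each. Of 34 tested genes listed as maternal transcripts reduced after the embryo's own genome is switched on, 0 rose and 5 fell by edgeR. That is 14.7% called, with a median log2 fold change of -0.01. Some of these transcripts were still abundant in the controls, and how far each had been reduced by this stage was not tested. The 5 lower became 2 without control MO 1, 3 without control MO 2 and 1 without Foxh1 MO 2. Their summed level was 5323 and 5059 TPM in the controls, against 4971 TPM in Foxh1 MO 1 and 5255 TPM in Foxh1 MO 2. That overlap of the groups rested on the most abundant member, ccnb1.2, which was not called. It stood at 2061 and 1984 TPM in the controls, 1938 TPM in Foxh1 MO 1 and 2301 TPM in Foxh1 MO 2. Among 40 tested genes listed as maternal regulators of transcription and signalling, 5 rose and 10 fell (37.5% called, median -0.18). Whether their transcripts in these explants were maternal or made by the embryo itself was not tested. The share called is therefore not a rate for maternal transcripts. Those that fell with the lowest adjusted p were irx1 (2.50-fold lower), otx1 (2.58-fold), sox2 (2.34-fold) and hes7.1 (2.48-fold). Besides smad2 the risers of lowest adjusted p were creb1 (2.48-fold), grhl1 (1.76-fold) and tfap2a (1.6-fold, call ended without control MO 1). Without that library fewer of the list were called higher, as was so over all tested genes. Among 24 tested nuclear partner genes of Foxh1, 3 fell (otx1 2.58-fold, eomes 1.95-fold and sox3 1.55-fold) and 1 rose (16.7% called). With a library left out these numbers changed, up or down depending on the library, and so did those over all tested genes. The riser was eed, a Polycomb subunit gene (1.45-fold), whose call ended when Foxh1 MO 2 or either control library was left out (edgeR adjusted p up to 0.176). Of 25 tested p53 and DNA damage response genes, 1 rose and 6 fell (28% called, median -0.09). The 1 that rose, zmat3, lost its call whichever library was left out. Among those that fell, cdkn1a (3.25 and 6.82 CPM) and gadd45b (2.84 and 5.24 CPM) were lower in control MO 1 than in control MO 2. The 2 controls lay closer together for plk3 (64.2 and 66.0 CPM) and ccng2 (13.8 and 11.7 CPM). Genes not called also differed between the controls, such as ccng1 (41.8 and 107 CPM) and mdm2 (37.7 and 69.3 CPM). Others not called were close, such as bax (129 and 135 CPM), or the other way, such as perp (52.5 and 43.4 CPM). The part of this difference between controls in the calls was not tested. The marker lists gave 10 higher and 6 lower of 28 tested ectoderm genes (57.1% called), 3 and 6 of 18 mesoderm genes (50% called), and 1 and 2 of 13 endoderm genes (23.1% called). Without control MO 1 fewer ectoderm and mesoderm genes were called higher. Without control MO 2 fewer ectoderm genes were called lower, and without Foxh1 MO 2 fewer mesoderm and endoderm genes. The numbers over all tested genes fell in the same fits and directions. The lists share members, and foxh1 is in none of them.

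The genes whose pattern over the 4 libraries was most like that of foxh1 were found by the Euclidean distance between log2 CPM profiles centred on their mean. The nearest named genes were rassf10 (distance 0.26), elk1 (0.28), cpne3 (0.29), spire1 (0.31) and herc1 (0.32). The median distance over the tested genes was 1.6. A gene at the same level in all 4 libraries would lie at 1.57, close to that median. All 5 named genes were higher in both Foxh1 MO libraries than in both controls. They were also higher in Foxh1 MO 1 than in Foxh1 MO 2. Both traits are what the measure selects for. The most abundant was herc1, which encodes a large HECT-domain protein, at 33.9 and 35.5 CPM in the controls, against 96.5 CPM in Foxh1 MO 1 and 71.3 CPM in Foxh1 MO 2. The actin nucleator gene spire1 stood at 5.2 and 4.5 CPM in the controls, against 13.7 CPM in Foxh1 MO 1 and 11.7 CPM in Foxh1 MO 2. The other 3 rested on 14 to 85 counts per library. For cpne3, a copine gene, the edgeR adjusted p was 0.0563, and elk1, an ETS factor gene, was not called when Foxh1 MO 1 or either control library was dropped (adjusted p up to 0.246). With 4 libraries in 2 groups, any gene that rose with a like spread comes close by this measure.

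**Figure D5:**
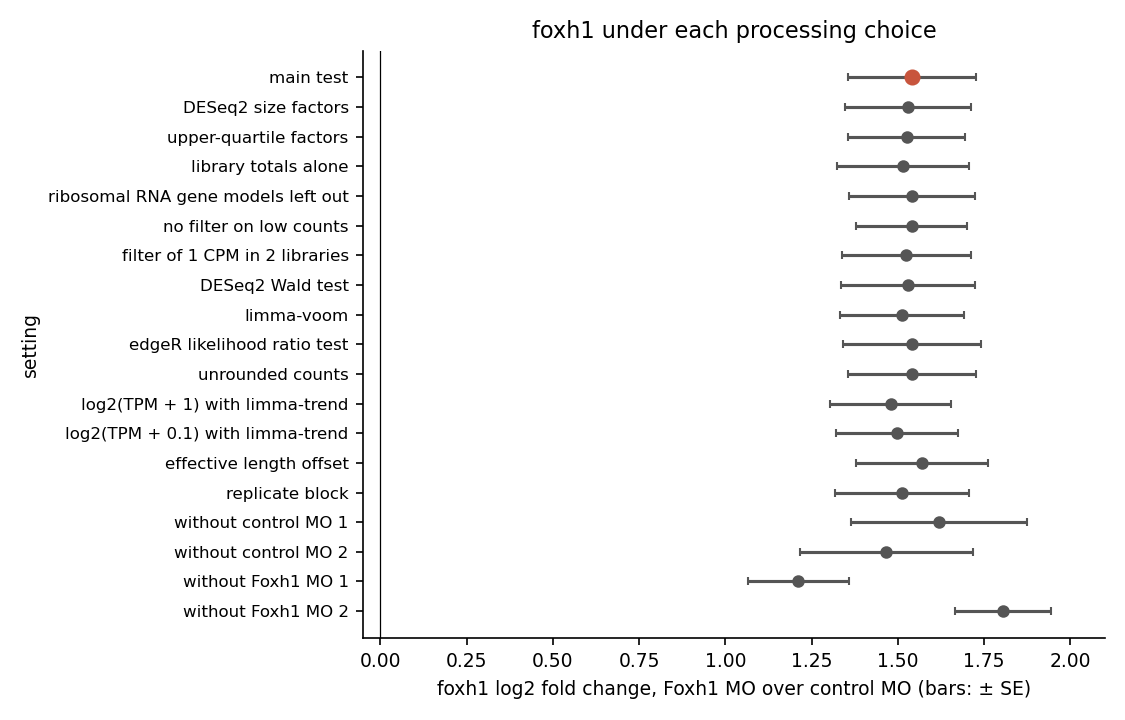
Log2 fold change of foxh1 ± SE (horizontal) in the main test (red) and under each processing choice (grey), one per row. All values lie between 1.21 and 1.81, with the extremes where one of the Foxh1 MO libraries was left out.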

How the data were processed

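The values analysed were the authors' expected counts (RSEM gene tables), with deposited TPM, FPKM and lengths used as levels beside them, all named in the file headers. The submitters' processing notes list RSEM 1.3.3, STAR 2.7.3a, edgeR 3.36.0 and R 4.1.2; build and strand setting are not given in the sources used here. A comparison table deposited by the authors held per gene the log2 fold change and log2 CPM, the F score, the p-value and its false discovery rate.

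After rounding, expected counts went into edgeR 4.0.16 (R 4.3.3). FilterByExpr (minimum count 10, minimum total 15) kept 13756 of 28850 genes. A quasi-likelihood F test with TMM factors and no covariate compared the groups over 4 libraries (2 residual and 10.5 prior degrees of freedom), with Benjamini-Hochberg adjustment over every tested gene; genes under 0.05 were called. Standard errors were derived as log2 fold change over the square root of F. The script was first tested on simulated data. Profiles in log2 CPM used a prior count of 2. Gene types and gene order came from RefSeq, assembly UCB_Xtro_10.0 (26531 genes matched). Alternatives used limma 3.58.1 and DESeq2 1.42.0.

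The gene and the lists were chosen with earlier results of these data known. Named genes were foxh1, its 3 RefSeq neighbours per side, the 3 genes next to it per side in control TPM, the 5 nearest in pattern, the 5 other fox genes of highest control TPM, called pathway genes, the most abundant gene of each pathway role, and from each list at most the 4 called members per direction of smallest adjusted p, not all of which are described. The genes cep85, pds5b, cyp26a1, otx2, cdkn1a, ccng1, mdm2, bax, perp and szl were chosen after their values were seen.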

Additional observations from a re-analysis of the deposited data

How the results depend on the processing

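The log2 fold change of foxh1 stayed positive in all 18 alternatives. With each library left out in turn it was 1.21 to 1.81. The lone library is then assumed to vary like the other group. The adjusted p and calls of these fits are therefore not comparable with those of the main test. In the other 14 alternatives foxh1 stayed called, with a log2 fold change of 1.48 to 1.57 (adjusted p by edgeR, DESeq2 or limma 9.07e-13 to 0.00101). With the replicate number as a block (replicate block) it was 1.51 (edgeR adjusted p = 2.77e-12), and 546 genes were higher, 699 lower and 3 of the Nodal pathway called. Same-numbered libraries deviated from their group means with a correlation of -0.08 across genes, so the numbers were not shown to pair them. Over 13753 genes, the fold changes of the authors' deposited table differed from that fit by a median of 0.000345, and from the main test by 0.00410. The 560 genes called lower became 862 with no filter on low counts, 872 with log2(TPM + 0.1), 220 at an adjusted p under 0.01, and 337 to 1493 with a library left out. The 574 called higher became 210 at 0.01, 874 at 0.1 and 388 to 853 with a library left out. The 3 Nodal pathway genes called became 2 to 9 with a library left out, 9 without Foxh1 MO 1; the cause was not tested. By CPM, not corrected for length, foxh1 had another rank than by TPM in the controls (2415 against 3818 by mean TPM). For the 59 other named genes, 980 of 1062 values kept direction and side of the threshold, 54 lost the call, 12 gained it and 16 turned sign, none of them a called gene. Those that turned were washc5 (-7.47e-05 with library totals, -0.0052 with a filter of 1 CPM, -0.029 with log2(TPM + 1), -0.030 with log2(TPM + 0.1)) and, with a library left out, washc5 (-0.023 to 0.044), tonsl (-0.26 to 0.38), LOC101735269 (-0.40 to 0.091), acsl4 (-0.16 to 0.081), ccdc167 (-0.29 to 0.055), fyb2 (-0.0030 to 0.30), foxi4.2 (-0.18 to 0.16) and smad4.1 (-0.43 to 0.15). At this depth 10 of 13 ligand genes were too low to test; the cause was not tested.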
